A study of Mus musculus with 6 samples.

Results

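The genes described are 10 that serve dopamine and melatonin, the pair of opposed day and night signals of the retina: Th, Ddc, Slc6a3, Drd1a, Drd2, Drd4, Adcy1, Aanat, Mtnr1a and Mtnr1b. They were taken by gene symbol from the 22692 symbols listed for each library, and all 10 were found. Drd1a is the older symbol of Drd1. The eyes came from C57BL/6J, an inbred mouse strain, and RNA of the whole eye was sequenced 1.5 h or 9.0 h after light onset, in 3 libraries per time. Per the labels' protocols, a library pooled the RNA of 5 females, 4 weeks old, and was built from poly(A) RNA with random primers; no treatment or genetic change is named. Nothing states that pools of the same time came from separate mice. The p-values thus describe only how far these libraries spread, and that spread may be technical.

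In the retina, dopamine is made by a sparse class of amacrine cells, is released in response to light, and signals day. Melatonin is made at night by photoreceptors, and each signal is known to suppress the other. Dopamine lowers cAMP in photoreceptors through the D4 receptor, and cAMP in turn is known to control the melatonin enzyme AANAT. In retina, Drd4, Adcy1 and Aanat are known as rhythmic transcripts. C57BL/6J is a limited model for the melatonin side, since the strain carries a natural defect in Aanat splicing and makes very little melatonin. A value per gene cannot tell spliced forms apart.

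A whole eye holds retina, pigment epithelium, lens, cornea and muscle, so a value is a mixture, and fewer cells of a type cannot be told apart from less RNA per cell. Rod genes, which mark the photoreceptors of the retina, summed to between 13400 and 15680 RPKM (the authors' read numbers scaled to gene length and library size) over 12 markers. The 14 lens genes summed to 98900 to 155800 RPKM at 1.5 h, lowest in replicate 1, and to 157300 to 181000 at 9.0 h. The lens sums of the times thus did not overlap, and their part in the members' fold changes was not tested. None of the 12 rod, 10 bipolar or 8 measured amacrine markers was at 0 in all libraries. Estimated depth was between 12710000 and 31770000 reads per library and was lowest in 1.5 h replicates 2 and 3.

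The stretches shown are those of the members' RefSeq promoter windows that hold a motif known for clock or cAMP control. They are given as background to the comparison of times, and a tie between motif and time was not tested. The 250 bases before each annotated start were searched on both strands for CACGTG (E-box, bound by clock activators), TGACGTCA (the cAMP response element), TTATGTAA (a D-box form), and TAATCC and TAAGCC (sites of the photoreceptor factors CRX and OTX2). Windows were given for 9 of the 10 genes, 11 windows in all, with none for Aanat. Each line gives 60 bases on the gene's strand of GRCm38.p6, with the match in capitals.
Adcy1, chr11:7063237-7063296, plus strand: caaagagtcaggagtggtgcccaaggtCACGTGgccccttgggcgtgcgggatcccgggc
Slc6a3, chr13:73536523-73536582, plus strand: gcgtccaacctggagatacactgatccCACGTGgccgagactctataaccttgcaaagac
Mtnr1a, chr8:45068873-45068932, plus strand: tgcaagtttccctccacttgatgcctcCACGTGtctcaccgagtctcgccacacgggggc
Th, chr7:142900008-142900067, minus strand: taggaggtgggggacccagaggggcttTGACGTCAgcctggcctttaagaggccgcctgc
The E-box began 169 bases before the start of Adcy1, 197 before that of Slc6a3 and 207 before that of Mtnr1a, and the cAMP response element 45 bases before that of Th. CACGTG was found in 6.02% of all 32851 windows of that length and TGACGTCA in 1.55%. TTATGTAA, TAATCC and TAAGCC, held by 0.819%, 6.25% and 8.2% of windows, were in none of the 11. A match is a description of letters and says nothing about binding in these eyes.

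Levels differed widely between the genes. Drd4, the D4 dopamine receptor, was the most abundant at 95.4 RPKM over the 6 libraries and ranked 417 of 22692 genes (the top 1.8%). Next came Adcy1, a calcium-stimulated adenylyl cyclase, at 15.0 RPKM, Drd2, the D2 receptor, at 10.3, and Drd1a, the D1 receptor, at 6.17. Th, tyrosine hydroxylase, which sets the rate of dopamine synthesis, had 1.78, Aanat, the penultimate melatonin enzyme, 1.53, and Ddc, the decarboxylase that makes dopamine from DOPA, 1.15 RPKM. The melatonin receptor Mtnr1a and the dopamine transporter Slc6a3 lay far lower, at 0.171 and 0.157 RPKM, and the other melatonin receptor, Mtnr1b, was listed at 0 in all 6 libraries.

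From Drd4 down to Th, each gene was above the next in 6 of 6 libraries, although the ranges of Adcy1 and Drd2 over the libraries overlapped. Th was above Aanat in 5 of 6 and Aanat above Ddc in 4 of 6, and their ranges overlapped, so these 3 cannot be ordered beyond their spread. Mtnr1a was above Slc6a3 in 3 of 6 libraries. On this scale per transcript length the 3 tested dopamine receptors stood above the enzymes, with Drd1a at 5.43 RPKM in its lowest library and Th at 2.05 in its highest.

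**Figure D1:**
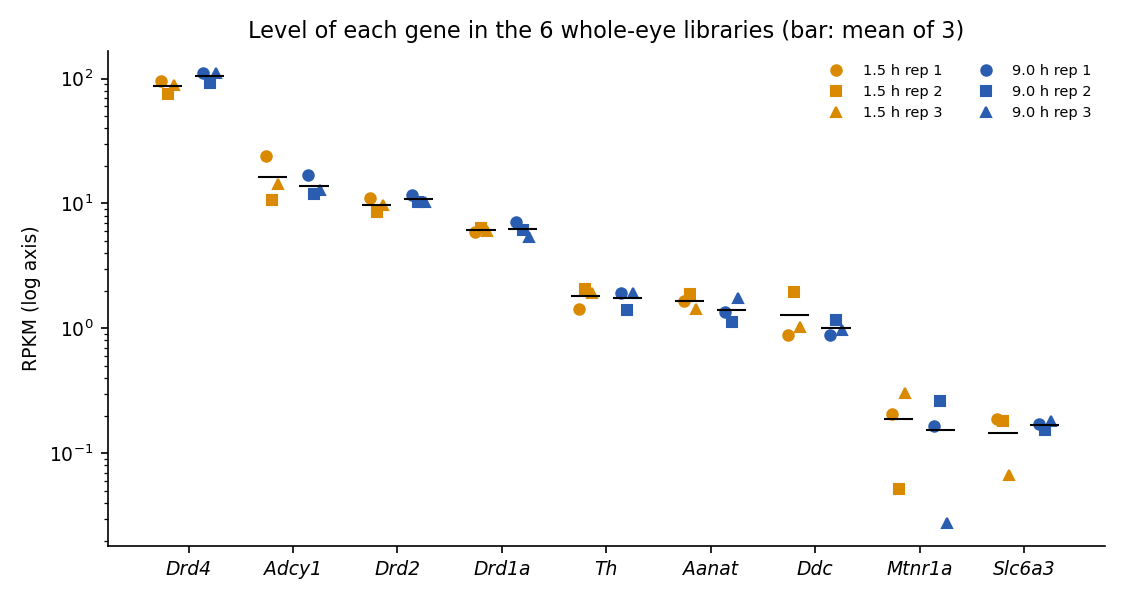
RPKM on a log axis for 9 genes, with 1 point per library, 1.5 h in orange and 9.0 h in blue, replicates by shape, and a bar at the mean of 3. The times overlap for every gene shown, and Mtnr1b, listed at 0 in all 6 libraries, is left out.

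Between 1.5 h and 9.0 h, none of the dopamine or melatonin genes passed the test. The test was limma on log2(RPKM + 0.1), with Benjamini-Hochberg adjustment over the 13490 genes that reached 1 RPKM in no fewer than 3 libraries, and 7 of the 10 met that filter. Of the 7, 0 had an adjusted p below 0.05 and 0 an unadjusted p below 0.05, against 0.222% (0.148% higher and 0.0741% lower at 9.0 h) and 11.1% of all tested genes. The adjusted p values of the 7 lay between 0.581 and 0.973. Levels at the 2 times overlapped for all 9 genes with any reads, where 18.2% of tested genes had no overlap (9.78% higher and 8.41% lower at 9.0 h). Of the 7, 3 had log2 fold changes above 0 and 4 below, while 49.4% of all tested genes were above 0. The 2 times both follow light onset and no other time was compared, so a rhythm over day and night was not tested.

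Of the synthesis enzymes, Th measured 1.43, 2.05 and 1.92 RPKM at 1.5 h, in the order of the replicate numbers, and 1.93, 1.39 and 1.94 at 9.0 h. Each time thus had 1 low library and 2 that were alike. The means were 1.80 ± 0.33 and 1.75 ± 0.31 RPKM (SD, n = 3 each), a log2 fold change of −0.04 (95% interval −0.50 to 0.43; limma adjusted p = 0.965). That interval spans ratios of 9.0 h to 1.5 h from 0.708 to 1.34. With 1 library left out the value lay between −0.19 and 0.11. Centred on retinal neuron markers it was 0.07, in a scaling that moved the median of all tested genes from −0.003 to 0.107.

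Ddc, which also acts in serotonin synthesis and so serves both pathways, had 0.890, 1.95 and 1.03 RPKM at 1.5 h and 0.886, 1.16 and 0.973 at 9.0 h. One library, 1.5 h replicate 2, stood above the other 5. The log2 fold change was −0.26 (95% interval −0.87 to 0.35; limma adjusted p = 0.782), and 0.06 without that library (limma adjusted p = 0.949). Estimated reads were 49 to 119 per library for Th and 27 to 70 for Ddc, taking the longest annotated transcript as the length.

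Slc6a3, which returns dopamine to the cell, had 0.189, 0.182 and 0.0665 RPKM at 1.5 h and 0.172, 0.153 and 0.180 at 9.0 h. With the shortest gene length that puts all 6 values within 0.1 of a whole read, these were 19, 8 and 3 reads and 19, 16 and 15 reads. The low library, 1.5 h replicate 3, had an exact Poisson 95% interval of 0.0137 to 0.194 RPKM, which covers counting error only and includes the values of all the other libraries. Slc6a3 did not meet the filter, and an exact two-sided permutation test of its RPKM gave p = 1.0, where 0.1 is the smallest p that 3 against 3 allows.

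Drd4, which lowers cAMP through an inhibitory G protein, had 95.8, 75.4 and 89.5 RPKM at 1.5 h and 109.8, 91.6 and 110.3 at 9.0 h. Of the 9.0 h libraries, 2 were above all of the 1.5 h libraries, and the third, replicate 2, was below 1.5 h replicate 1. The means were 86.9 ± 10.5 and 103.9 ± 10.6 RPKM (SD, n = 3 each), a log2 fold change of 0.26 (95% interval −0.08 to 0.60; limma adjusted p = 0.581). Its interval ends at a ratio of 1.51.

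The Drd4 values ran beside a measured trend with GC content. Its longest transcript had 57.8% GC, and the 2675 tested genes of highest GC content had median log2 deviations of 0.125, −0.22 and −0.079 in the 1.5 h libraries and 0.125, −0.07 and 0.12 at 9.0 h. Drd4's own deviations, in the same order, were 0.02, −0.33 and −0.08, then 0.21, −0.05 and 0.22. The part of GC content in its values was not tested. With values centred within groups of like GC content and length, an alternative chosen after seeing the data, its log2 fold change was 0.18 (limma adjusted p = 0.428). Rod markers, from cells that express Drd4, had a median log2 fold change of −0.18 with 9 of 12 below 0, and centred on retinal neuron markers Drd4 had 0.37 (limma adjusted p = 0.284). The times did not overlap for Drd4 in these alternatives, where 23.8% of tested genes did not overlap after the first centring and 22.6% after the second. After the first, 13.1% were higher at 9.0 h and 10.7% lower, and after the second 18.6% were higher and 3.92% lower. The second centring moved the median log2 fold change of all tested genes to 0.107.

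Drd2, which serves as an autoreceptor on dopamine cells among other roles, had 11.0, 8.51 and 9.65 RPKM at 1.5 h and 11.8, 10.3 and 10.4 at 9.0 h. The 1.5 h replicate 1 library lay within the range at 9.0 h and the other 1.5 h libraries below it. The log2 fold change was 0.16 (95% interval −0.17 to 0.48; limma adjusted p = 0.758).

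Drd1a, which raises cAMP through a stimulatory G protein and is found on bipolar and horizontal cells, had 5.93, 6.36 and 6.04 RPKM at 1.5 h and 7.11, 6.18 and 5.43 at 9.0 h. Of the 9.0 h libraries, replicate 1 lay above the 1.5 h range, replicate 2 within it and replicate 3 below it. Its log2 fold change was 0.02 (95% interval −0.31 to 0.35; limma adjusted p = 0.973). With RPKM rescaled to exclude lens and muscle markers its value was −0.11 (limma adjusted p = 0.788), a scaling that moved the median of all tested genes to −0.138.

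**Figure D2:**
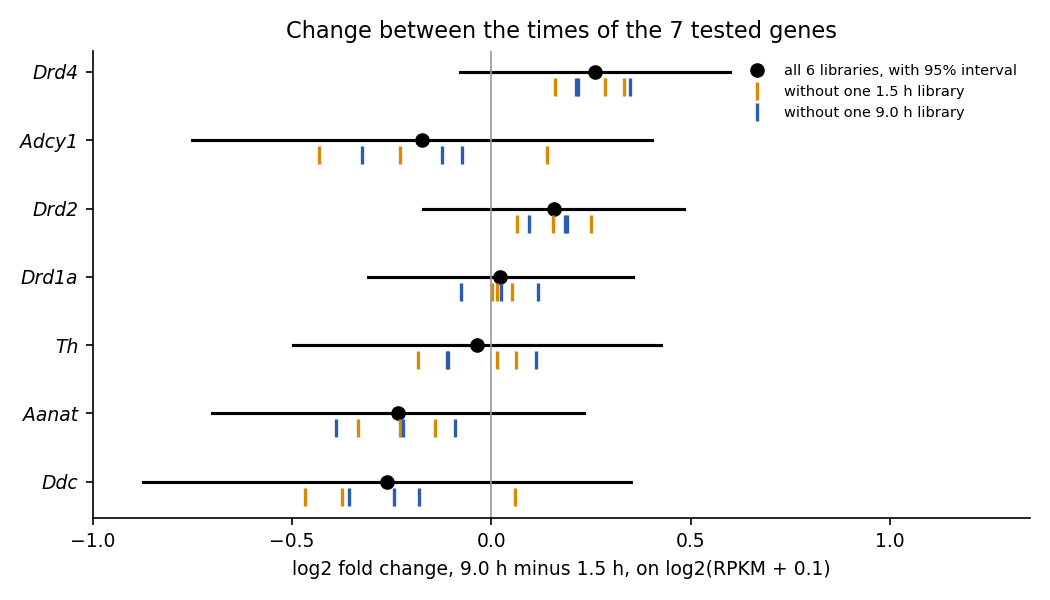
Log2 fold change of 9.0 h against 1.5 h on log2(RPKM + 0.1) for the 7 tested genes, with limma's 95% interval (black) and the values when 1 library is left out (orange ticks, a 1.5 h library; blue ticks, a 9.0 h library). Every interval includes 0, and the ticks of Adcy1, Drd1a, Th and Ddc fall on both sides of 0.

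Adcy1, whose product makes cAMP from ATP, had 23.8, 10.7 and 14.2 RPKM at 1.5 h and 16.8, 11.8 and 12.7 at 9.0 h. The highest and the lowest of the 6 values were both at 1.5 h. The means were 16.3 ± 6.8 and 13.8 ± 2.7 RPKM (SD, n = 3 each), a log2 fold change of −0.17 (95% interval −0.75 to 0.40; limma adjusted p = 0.855). Without 1.5 h replicate 1 it was 0.14 (limma adjusted p = 0.639). The variance within times was 398 times what reads alone would give, against 73.6 times for Drd4 and 2.82 times for Th. For the same relative spread this ratio rises with read number, so it does not rank the genes by spread. Summed estimated reads were 27086 for Adcy1, 38619 for Drd4 and 473 for Th. As a percentage of the mean, the 1.5 h SD was 41.7% for Adcy1, 12.0% for Drd4 and 18.2% for Th. The 9.0 h values, in the same order, were 19.3%, 10.2% and 17.7%.

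Of the 9 tested adenylyl cyclases, 5 had their highest value in 1.5 h replicate 1, and the other 4 in 9.0 h replicate 1. The 5 were Adcy1, Adcy5, Adcy6, Adcy8 and Adcy9, of which Adcy8 and Adcy9 are named after their values were seen. Over all tested genes, 22.5% were highest in 1.5 h replicate 1. Adcy6 had 25.4, 10.7 and 13.8 RPKM at 1.5 h and 15.1, 11.6 and 13.6 at 9.0 h, with its highest and lowest values in the same libraries as Adcy1. No family member was called, 3 had fold changes above 0 and 6 below, and the median log2 fold change was −0.12, against −0.003 over all tested genes. Without 1.5 h replicate 1 that median was 0.14.

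The transcript of Adcy1 is long, 12259 nt, with 52.6% GC. The 85 tested genes with a transcript above 10000 nt and GC above 50% had median log2 deviations of 0.492, −0.151 and 0.036 in the 1.5 h libraries and 0.07, −0.284 and −0.171 at 9.0 h. Those of Adcy1 were 0.71, −0.43 and −0.03, then 0.21, −0.29 and −0.19, and the part of length and GC content in them was not tested. Centred within groups of GC content and length, Adcy1 had a log2 fold change of −0.10 (limma adjusted p = 0.816).

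**Figure D3:**
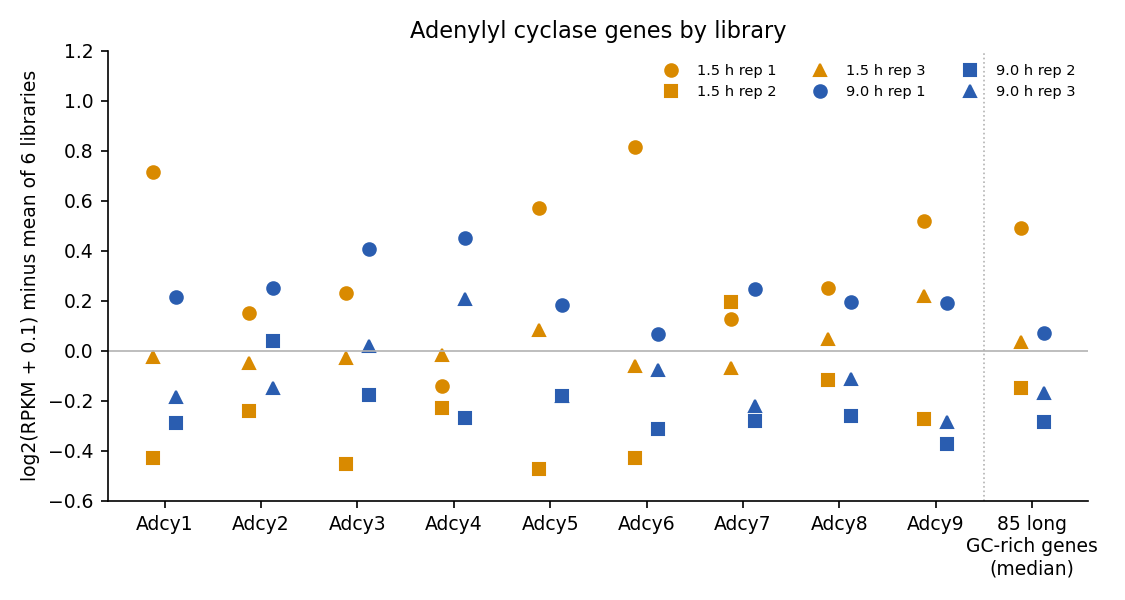
Log2(RPKM + 0.1) of the 9 tested adenylyl cyclase genes in each library, as the difference from the gene's mean over 6 libraries, with 1.5 h in orange, 9.0 h in blue and replicates by shape. The last column is the median of 85 long, GC-rich genes, and the orange circle, 1.5 h replicate 1, is the highest point for Adcy1, Adcy5, Adcy6, Adcy8 and Adcy9.

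On the melatonin side, Aanat had 1.66, 1.89 and 1.42 RPKM at 1.5 h and 1.36, 1.12 and 1.74 at 9.0 h. Of the 9.0 h libraries, 2 were below every 1.5 h library, and the third was above 2 of the 1.5 h libraries. Its means were 1.66 ± 0.23 and 1.40 ± 0.31 RPKM (SD, n = 3 each), with a log2 fold change of −0.24 (95% interval −0.70 to 0.23; limma adjusted p = 0.738). Estimated reads were 25 to 65 per library, and the variance within times was 1.64 times what reads alone would give.

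Mtnr1a, the MT1 melatonin receptor, had 0.206, 0.0522 and 0.306 RPKM at 1.5 h and 0.167, 0.264 and 0.0276 at 9.0 h. By the same estimate these were 9, 1 and 6 reads, and 8, 12 and 1 reads. Each time therefore held 1 library with a single read, and an exact two-sided permutation test gave p = 0.7, where 0.1 is the smallest possible. For Mtnr1b, the MT2 receptor, 3 reads would have given 0.051 to 0.129 RPKM, the level of a single library that a count of 0 would allow. A listed 0 need not be such a count, since 4 red blood cell markers, all globin genes, were also listed at 0 in all 6 libraries while the globin entry Beta-s had 41.9 to 366.9 RPKM.

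Other genes of the pathways, from lists that also hold the members, were tested in the same fit. No gene of these lists was called by limma, and an unadjusted p below 0.05 was found for 3 of 11 tested genes of the synthesis list, 7 of 34 of the cAMP and G protein list, 1 of 10 of the regulators and 0 of the others, against 11.1% of all tested genes. Of 12 dopamine synthesis genes 11 were tested, 9 with fold changes above 0, and the 2 below 0 were Th and Ddc. The list had a median log2 fold change of 0.21, against −0.003 over all tested genes. All 9 serve tetrahydrobiopterin, the cofactor of tyrosine hydroxylase, or the uptake of amino acids.

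Pcbd2, which recycles the cofactor, had 26.8 ± 2.3 RPKM at 1.5 h and 35.8 ± 4.7 at 9.0 h (SD, n = 3 each), a log2 fold change of 0.41 with limma adjusted p = 0.341. Pts and Qdpr, of cofactor synthesis and recycling, had 0.21 and 0.15, and Slc3a2, a subunit of the amino acid transporter that carries tyrosine, 0.23. Pcbd1, named after its value was seen, had the largest fold change of the list at 0.59 (limma adjusted p = 0.189). Without 1.5 h replicate 1 it was 0.49, with limma adjusted p = 0.027. That fit called 669 genes higher and 576 lower, against 20 and 10 with all 6 libraries. Pcbd1 was not called with any other single library left out. Of the 11 tested genes, 5 were higher at 9.0 h without overlap, where 9.78% of all tested genes were.

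The list of dopamine storage, uptake and breakdown had 8 of 11 genes tested, 1 above 0 and 7 below, with a median of −0.05. That median was 0.02 without 1.5 h replicate 2 and 0.06 when centred on retinal neuron markers. In these settings the medians of all tested genes were 0.03 and 0.107. Among the abundant ones, Aldh1a1 and Aldh2, which oxidise aldehydes, had log2 fold changes of 0.07 and −0.02, and Sncg, a synuclein abundant in ganglion cells, −0.03. Of the remaining receptors, Drd5 had 0.932 ± 0.130 and 0.852 ± 0.018 RPKM and Drd3 between 0 and 0.0928, and neither met the filter.

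In the melatonin list 5 of the 10 measured genes were tested, 2 above 0 and 3 below, with a median of −0.24, the value of Aanat itself. Without 1.5 h replicate 2 that median was 0.06, the value of Ddc in that fit. Ywhae and Ywhaz, 14-3-3 proteins of which the zeta form is known to bind AANAT, had 0.04 and 0.05, and Nqo2, a quinone reductase that binds melatonin, −0.33 (limma adjusted p = 0.50). Asmt, the last enzyme of the pathway, was not analysed here.

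All 34 genes of the cAMP and G protein list were tested, 13 above 0 and 21 below, with a median of −0.06, which was −0.16 without 1.5 h replicate 1, 0.01 without 1.5 h replicate 3, 0.03 without 9.0 h replicate 3 and 0.05 when centred on retinal neuron markers. Calm2 and Calm3, which encode calmodulin, a stimulator of ADCY1, had log2 fold changes of 0.28 and 0.35, and Gnas, the stimulatory G protein, 0.26. Gnaq, named after its value was seen, had 11.5 RPKM at 1.5 h and 7.93 at 9.0 h, a log2 fold change of −0.53 with limma adjusted p = 0.190. Without 1.5 h replicate 1 Gnaq had −0.60 with limma adjusted p = 0.00652. That fit called 669 genes higher and 576 lower, against 20 and 10 with all 6 libraries. Gnaq was not called with any other single library left out.

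Of 12 regulators and neuropeptides 10 were tested, 5 above 0 and 5 below, with a median of −0.001. Crx, Nrl and Otx2, photoreceptor transcription factors, had 0.06, 0.00 and −0.16. Nr4a1, a nuclear receptor induced by neural activity, had 7.80 ± 1.76 and 12.6 ± 1.7 RPKM (SD, n = 3 each), a log2 fold change of 0.70 with limma adjusted p = 0.189. Without 1.5 h replicate 1 it was 0.87, with limma adjusted p = 1.04e-05, in a fit that called 669 genes higher and 576 lower. With all 6 libraries 20 genes were higher and 10 lower. Nr4a1 was not called with any other single library left out.

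**Figure D4:**
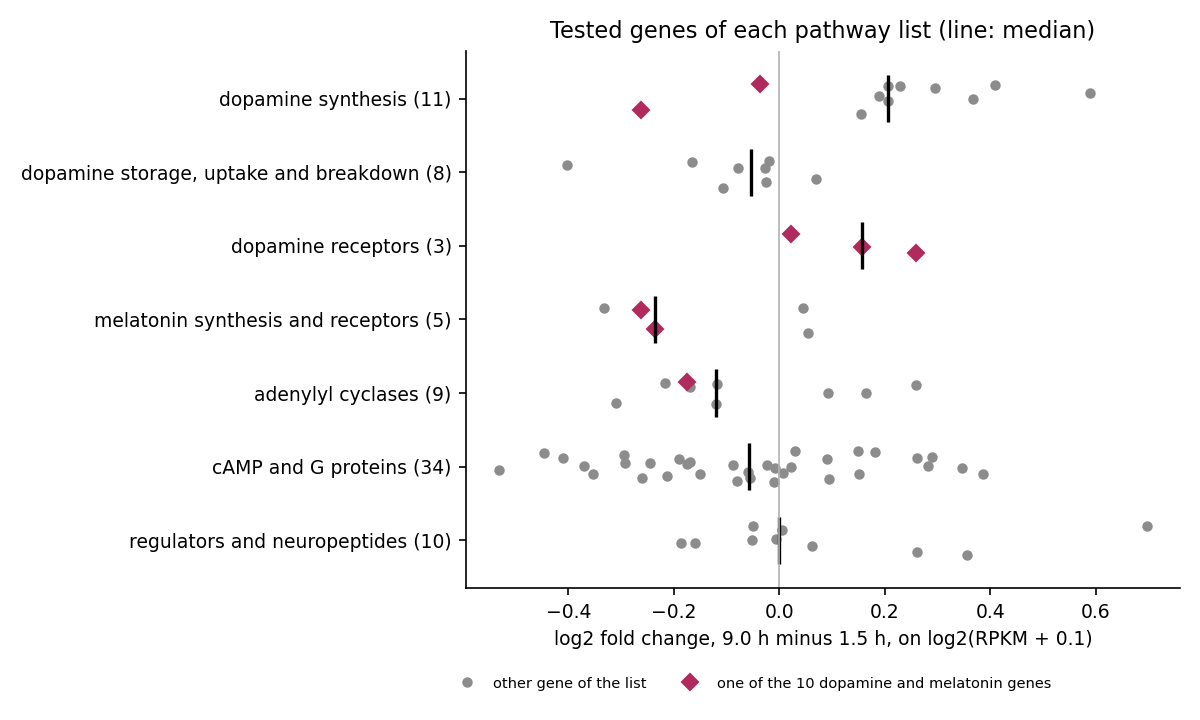
Log2 fold change of 9.0 h against 1.5 h for each tested gene of 7 pathway lists (number tested in brackets), with a line at the list's median, scattered vertically for legibility. Th and Ddc (diamonds) are the 2 genes of the dopamine synthesis list below 0, and Ddc appears in 2 lists.

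Dopamine cells belong to the amacrine class, whose markers were compared with Th. The 8 tested markers had a median log2 fold change of 0.21, with 7 above 0, and mean deviations of −0.078, −0.198 and −0.075 at 1.5 h and 0.23, 0.051 and 0.069 at 9.0 h. Their summed level was 244.2 to 257.4 RPKM at 1.5 h and 276.9 to 299.5 at 9.0 h. Th had deviations of −0.28, 0.21 and 0.12, then 0.13, −0.31 and 0.13. These markers cover all amacrine cells, of which dopamine cells are few.

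As a description of pattern, each of the 7 tested members was compared with all tested genes by Pearson correlation of log2(RPKM + 0.1) over the 6 libraries. Adcy1 was closest to Abca2 (r = 0.99997), Dnajc14 (0.998) and Inppl1 (0.998), and 245 tested genes had r above 0.95 with it. Drd4 was closest to Grwd1 (0.998), Entpd2 (0.996) and Tapbp (0.991), Drd2 to Bahd1, Brap and Smarcd1 (0.998 to 0.996) and Ddc to Wdr61, Dnajc7 and Lrrc14b (0.998 to 0.993). Drd1a was closest to 2310008H09Rik (0.998), Glt25d2 (0.976) and Vps26b (0.973). Th had Kbtbd5 (0.980), Ghdc (0.976) and Aldh2 (0.967) nearest, with 7 genes above 0.95, and Aanat had Gmppa, Ddit3 and Cfp (0.985 to 0.981), with 16. With 6 points and 13490 candidates, many genes reach values this high by this measure, and the libraries share depth and tissue make-up.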

How the data were processed

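Whole-eye poly(A) RNA was measured in 6 libraries, 3 at each time. The authors deposited 1 table of RPKM values per library; per the submitters' processing notes, GSNAP, HTSeq and the mouse build mm9 were used. Tool versions, gene models, use of strand and handling of reads with several matches: not given in the sources used here. The unit was taken from the values: in genes of a single transcript length, 69.4% to 73.3% of low values lay within 0.1 of a whole read at the estimated depth, against at most 28.8% at other steps tried. These steps gave the depth, and read numbers are estimates. Transcript lengths and GC content came from GENCODE M21 (GRCm38), with which 99.2% of tested genes matched, and promoters from RefSeq on GRCm38.p6. GENCODE exon positions were used only to look for exon bases shared with other genes. In GENCODE, no member shared exon bases with another gene, and none had a transcript of at least 95% identity over 200 nt elsewhere (minimap2).

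The comparison was 9.0 h minus 1.5 h in limma 3.58.1 (R 4.3.3; eBayes with trend and robust settings) on log2(RPKM + 0.1), which understates changes of low genes, with calls at an adjusted p of 0.05. Members and lists were chosen with earlier results of these data known. Named genes are all members, called genes and at most the 4 most abundant of each list, and the 3 genes nearest each member in pattern; others are marked, and some genes under this rule are not reported here. Replicate numbers are shared between times without a stated meaning, and same-numbered libraries deviated together with r = 0.347, 0.484 and −0.215, so they were not treated as pairs. Alternatives covered scaling, pseudocount, filter, variance model, block and each library left out.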

Additional observations from a re-analysis of the deposited data

How the results depend on the processing

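No member was called in any of the 18 alternatives in which it was tested, and the lowest limma adjusted p of any member was 0.176 (Drd4 with array weights). Slc6a3 and Mtnr1a were tested in only 2 alternatives, those with a lower filter or no filter. Mtnr1b, listed at 0 throughout, was never tested. Centred on retinal neuron markers, Th had 0.0736, and rescaled without lens and muscle markers, Drd1a had −0.11; these scalings moved all genes together, and the median of all tested genes to 0.107 and −0.138. Leaving out 1 library at a time gave ranges of −0.19 to 0.11 for Th, −0.47 to 0.0578 for Ddc, −0.0754 to 0.12 for Drd1a and −0.43 to 0.14 for Adcy1. Those of Drd4, Drd2 and Aanat kept their sign, at 0.16 to 0.35, 0.06 to 0.25 and −0.39 to −0.09. The number of members whose times do not overlap, 0 as reported, was 1 (Drd4) when centred on retinal neuron markers and 1 (Drd4) within groups of GC content and length, an alternative chosen after seeing the data. It was 0 to 2 with 1 library left out: Drd2 and Drd4 without 1.5 h replicate 1, Slc6a3 without 1.5 h replicate 3, Drd4 without 9.0 h replicate 2 and Aanat without 9.0 h replicate 3. Of all tested genes, the share without overlap was 22.6% and 23.8% in these centrings, 38.2% without 1.5 h replicate 1 and 23% to 28.8% without each of the others.

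Counts over all genes, 20 higher and 10 lower, moved far more. They were 12 and 6 when centred on the median, 10 and 5 after quantile normalization and 54 and 26 within groups of GC content and length. Centred on retinal neuron markers 44 genes were higher, with neither the trend nor the robust setting 11 were higher, without lens and muscle markers 19 were lower, and at a pseudocount of 0.01 6 were lower. With array weights, whose fit did not converge, they were 1419 and 825, and with the replicate block 87 and 54, where no member was called. Leaving out 1 library gave 0 to 669 higher and 2 to 576 lower, the highest without 1.5 h replicate 1. The 0 came without 9.0 h replicate 3, and the 2 without either replicate 1 or replicate 3 of 9.0 h. Not every 1.5 h library deviated most like the 9.0 h library of its number: replicate 3 was nearest to 9.0 h replicate 2 (r = 0.191). The cause was not tested. Of the pathway lists, Nr4a1 was called with the replicate block (limma adjusted p = 0.0276), and Pcbd1, Gnaq, Pde4d and Nr4a1 without 1.5 h replicate 1. With array weights 4 genes of the synthesis list, 5 of the cAMP and G protein list and 2 of the regulators were called. Few reads lie behind Slc6a3 and Mtnr1a, at 3 to 19 and 1 to 12 reads per library.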
